A study of Oryza sativa with 12 samples.

Results

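Rice genes carry LOC_Os identifiers that name the chromosome and the place of a gene along it, and 499 such identifiers were expressed in the cultivar 93-11 although none of the 6 files of the cultivar Nip lists them. They were chosen as the LOC_Os identifiers listed for 93-11 and not for Nip, with a mean of at least 20 FPKM in 93-11 normal or 93-11 HS. FPKM is a read count scaled by gene length and sequencing depth. Of 29036 identifiers listed for 93-11, 28125 are LOC_Os identifiers, and 4726 of these are unlisted for Nip. The other 4227 unlisted identifiers stayed under 20 FPKM. The genes were thus chosen by their measured FPKM in 93-11 and by the lack of a row for Nip, and neither is a result. An identifier may be unlisted because the annotation used for that cultivar lacks it or because it was at 0 in all 6 libraries, since no listed identifier was at 0 in all of them. The files do not tell these cases apart.

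Nipponbare (Nip, Japonica) and 93-11 (Indica) are cultivars of the main subspecies of Asian rice. Aerial parts of 3-week-old seedlings were sequenced in 4 groups of 3 libraries, Nip normal, Nip HS, 93-11 normal and 93-11 HS, which the paper describes as biological replicates. All seedlings were grown in Yoshida solution with 10 h of light at 800 μmol and 14 h of dark. HS (heat stress) seedlings were then held at 45 °C for 36 h, at a relative humidity over 80% and a light of 60 to 80 μmol. No normal seedlings at that light and humidity are described, so effects of heat, light and humidity cannot be told apart. Reads of each cultivar were aligned to its own genome, per the paper.

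FPKM summed over genes was 582896 to 617044 in the normal and 794246 to 810922 in the HS libraries of 93-11. In Nip the sums moved the other way, from 785851 to 798491 in normal to 552167 to 561203 in HS, so values set side by side between the cultivars depend on the scaling. The files hold no read counts, so the depth behind a value is unknown and its precision rests on 3 replicates. The gene table used here matched 0 of the 499 identifiers, so no names or roles are given and the labelled tissue was not checked against marker genes.

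Japonica and Indica genomes differ in gene content, and a gene found in the genome of a single cultivar is a case of presence and absence variation. Such a gene has to be told from a gene that is present in both genomes but stands under another identifier in one of the annotations. LOC_Os identifiers were assigned along the Nipponbare chromosomes, mostly in steps that end in 0, and loci placed between them have another last digit. An identifier is thus both a name and a position on the Nipponbare chromosomes. Each gene chosen here bears such a name. Of 29036 identifiers listed for 93-11, 28125 are LOC_Os identifiers, although reads of 93-11 were aligned to its own genome, per the paper. How genes of 93-11 came to bear these names is not given in the sources used here. A lack of a row for Nip is therefore no evidence that the Nipponbare genome lacks the locus. Presence and absence of the genes in the genomes was not tested.

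The identifiers of these genes were unlike those of other expressed genes. In 305 of the 499 (61.1%) the last digit was not 0, with 108 ending in 4 and 98 ending in 9. Among the 6945 LOC_Os identifiers that are listed for both cultivars and reached the same 20 FPKM in 93-11, this was so for 404 (5.82%). It was so for 2301 (54.4%) of the unlisted identifiers under 20 FPKM, so the excess was not limited to genes above this minimum. Of the 397 identifiers listed for Nip but not for 93-11 that reached 20 FPKM in Nip, 125 (31.5%) ended in another digit than 0. These shares are a description and were not tested.

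**Figure D1:**
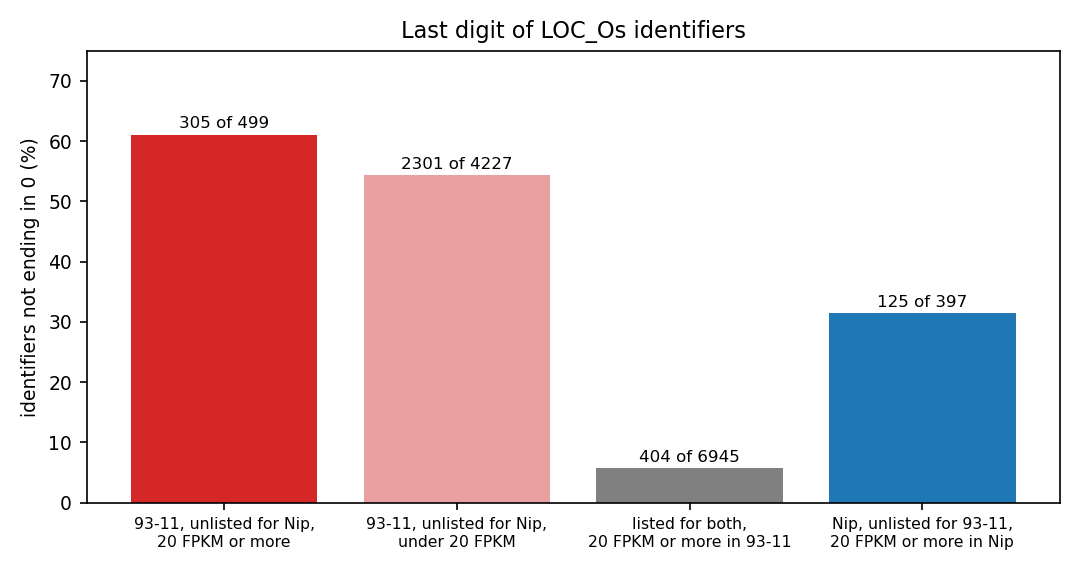
Share of LOC_Os identifiers whose last digit is not 0 (vertical axis, percent, from 0) in 4 sets of identifiers, with the counts above each bar. The bar of the 499 expressed 93-11 genes unlisted for Nip stands at 61.1%, against 5.82% for genes of the same level listed for both cultivars.

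The genes lay on all 12 chromosomes. Among LOC_Os identifiers at 20 FPKM or more in 93-11, taking the 499 and the 6945 together, the unlisted share was lowest on chromosome 5 (4.91%, 32 genes) and highest on chromosome 10 (8.85%, 33 genes). Chromosome 1 held the most of them, 81 genes, and chromosome 11 the fewest, 22 genes. In the order of the LOC_Os identifiers listed for either cultivar, 35 of the genes stood beside another of the 499. They formed 17 runs, of which 16 held 2 genes and 1 held 3. Neighbours and adjacent identifiers are meant in this order, which skips loci listed for neither cultivar. Such neighbours need not be next to each other on the chromosome.

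Levels in 93-11 ran from the minimum of 20 FPKM upwards to 5900 FPKM in a single library. In their higher group, 272 genes were between 20 and 50 FPKM, 96 between 50 and 100, 112 between 100 and 1000, and 19 at 1000 or more. The median was 46.3 FPKM, close to the 45.8 FPKM of the genes listed for both cultivars. Together the 499 genes held 6.41% to 6.50% of the FPKM sum in the normal libraries and 6.90% to 6.94% in the HS libraries. The 10 genes of highest mean made up 30.8% of their summed FPKM in normal and 30.8% in HS. Replicates were close, with a median coefficient of variation of 4.83% in normal and 5.02% in HS over the genes at 20 FPKM or more in that group, against 4.27% and 4.24% for genes listed for both.

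At the lower limit, LOC_Os04g37769 was just inside with a mean of 20 FPKM in normal and LOC_Os07g49204 with 20.1 FPKM in HS. LOC_Os06g29844 and LOC_Os03g50059 were just outside, each with 19.8 FPKM in normal. In 189 of the 499 genes (37.9%) both groups reached 20 FPKM, in 101 (20.2%) only the normal group did, and in 209 (41.9%) only the HS group did. For the genes listed for both cultivars these shares were 46.2%, 23.9% and 29.8%.

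**Figure D2:**
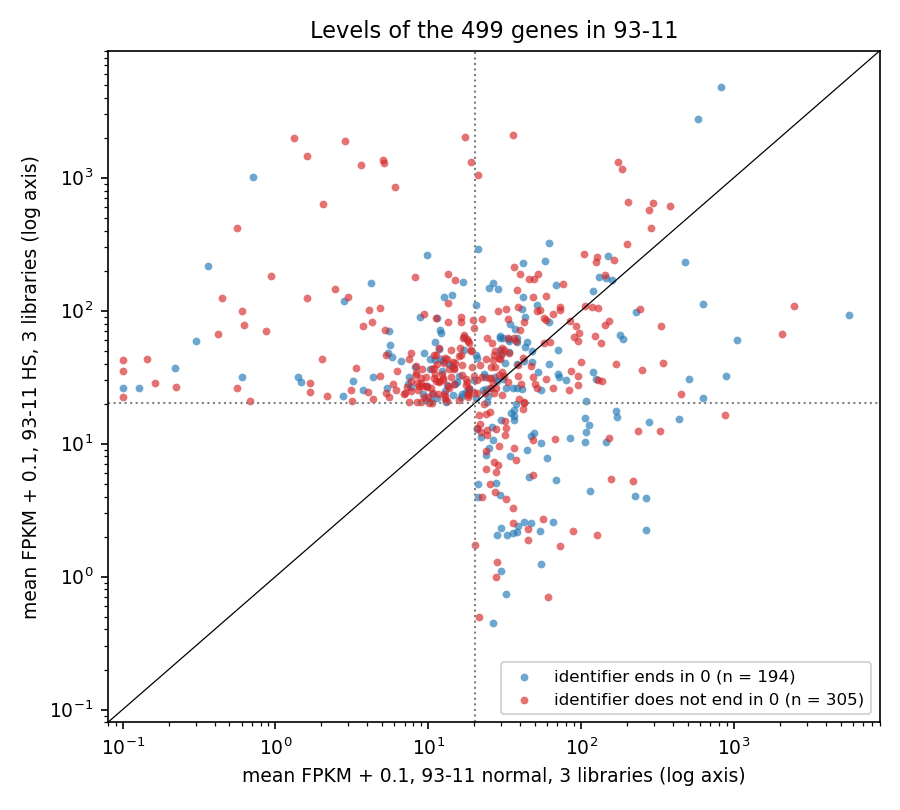
Mean FPKM + 0.1 of each of the 499 genes in the 3 normal libraries (horizontal) and the 3 HS libraries (vertical) of 93-11, both on log axes, coloured by the last digit of the identifier. Dotted lines mark the minimum of 20 FPKM and the diagonal marks equal levels. The upper left holds 11 genes that were under 20 FPKM in normal and at 500 FPKM or more in HS.

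The change upon HS was tested in 93-11 alone, since the genes have no Nip values. limma was fitted to log2(FPKM + 1) of 20340 genes, and a gene was called when its adjusted p was below 0.01 and its log2 fold change was 1 or more in either direction. All 499 genes passed the filter on low values, as the rule made likely. Of these, 215 (43.1%) were upregulated and 122 (24.4%) downregulated, where 22.7% and 27.5% of all genes tested were called, and 162 were not called. A gene at 20 FPKM in a single group had to differ, so these counts are no evidence by themselves. Of the genes listed for both cultivars at the same level, 34.4% were upregulated and 26.6% downregulated. The median log2 fold change was 0.78 over the 499 genes, 0.43 over those listed for both and 0.03 over all genes tested. The HS values were all above the normal values in 308 of the 499 genes (61.7%) and all below them in 162 (32.5%), where 44.5% and 43.2% of all genes tested were so. Both kinds together made up 470 genes (94.2%), against 87.7% of all genes tested.

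The genes that reached 20 FPKM in both groups were nearer to the others. Of these 189 genes, 44 (23.3%) were upregulated and 35 (18.5%) downregulated, against 26.3% and 14.2% of the 3212 such genes listed for both. Their median log2 fold change was 0.34, against 0.33.

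The balance of the calls moved with the scaling of the libraries. With values rescaled to sum to 1000000 in each library, 170 of the 499 genes were upregulated and 144 downregulated, so that upregulated genes were 54.1% of the calls and not 63.8%. Over all genes tested that share went from 45.3% to 31.6%, and the median log2 fold change shifted by -0.38.

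The calls also differed by last digit, as did the shares of the classes that the minimum of 20 FPKM made. Of the 305 genes not ending in 0, 144 (47.2%) were upregulated and 59 (19.3%) downregulated, and of the 194 genes ending in 0, 71 (36.6%) and 63 (32.5%). Genes that reached the minimum in HS only, which had to be higher there, were 47.2% of the former and 33.5% of the latter. Among genes at 20 FPKM or more in both groups, 24 of 112 not ending in 0 (21.4%) and 20 of 77 ending in 0 (26.0%) were upregulated. In this class 18 (16.1%) and 17 (22.1%) were downregulated, and the median log2 fold changes were 0.46 and 0.24. Among genes that reached the minimum in HS only, 83.3% and 78.5% were upregulated. The difference in upregulated shares thus changed sign between these classes. These values are a description, and the differences were not tested.

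**Figure D3:**
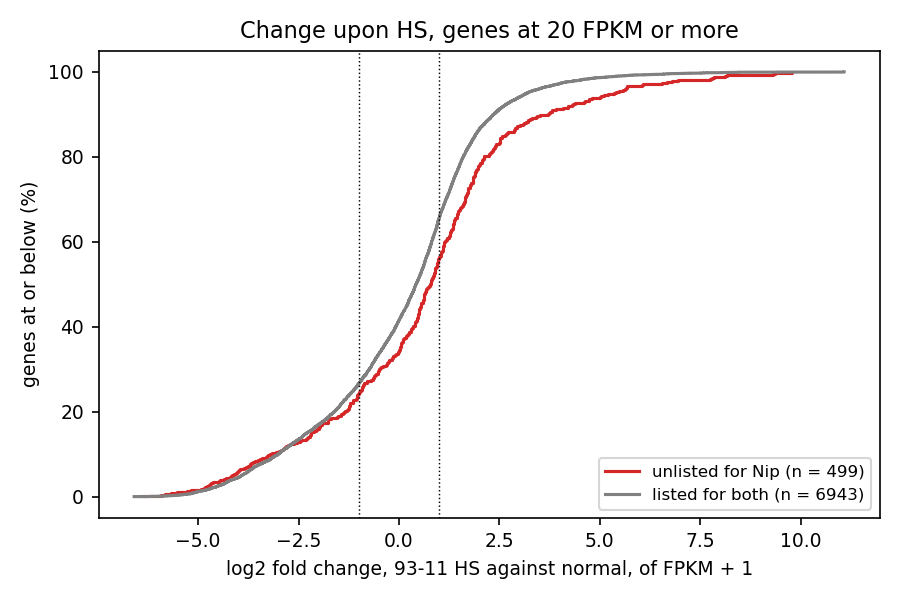
Cumulative share of genes (vertical, percent) at or below each log2 fold change of FPKM + 1 in 93-11 HS against normal (horizontal), for the 499 unlisted genes and for the 6943 tested genes of the same level listed for both cultivars. Dotted lines mark changes of -1 and 1. The curve of the unlisted genes lies to the right from about the middle upwards, with a median of 0.78 against 0.43.

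Steep rises were frequent, but most of the genes with one reached the minimum of 20 FPKM in HS only. Such genes had to be higher in HS, and they were 41.9% of the 499 against 29.8% of those listed for both. The shares given next are therefore no evidence by themselves. A called log2 fold change of 3 or more was found in 63 of the 499 genes (12.6%), against 2.98% of all genes tested and 5.90% of those listed for both at the same level. LOC_Os06g17076 had the largest, with 1.16, 1.12 and 1.42 FPKM in the normal libraries and 1859, 2031 and 2028 FPKM in the HS libraries. The groups were far apart, and the log2 fold change was 9.79 with a standard error of 0.063 (limma, adjusted p = 1.595e-11).

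LOC_Os05g06404 was at 2.26, 2.29 and 0 FPKM in normal and at 1322, 1603 and 1417 FPKM in HS (log2 fold change 9.36, standard error 0.41). LOC_Os01g27970 went from 0.755, 0.462 and 0.612 FPKM to 976, 999 and 1071 FPKM (log2 fold change 9.30, standard error 0.073). LOC_Os09g03204 went from 2.07, 1.95 and 4.29 FPKM to 1869, 1932 and 1811 FPKM (log2 fold change 9.01, standard error 0.20). These genes were under 5 FPKM in every normal library and over 500 FPKM in every HS library.

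LOC_Os11g22296 rose from 0.735, 0.373 and 0.269 FPKM to 417, 419 and 416 FPKM, and its HS libraries were nearly equal. LOC_Os11g19871 rose from 3.43, 3.77 and 3.42 FPKM to 1210, 1295 and 1250 FPKM, with a log2 fold change of 8.11. LOC_Os06g37139 rose from 4.93 ± 1.0 to 1349 ± 37.0 FPKM and LOC_Os04g13364 from 1.94 ± 0.839 to 633 ± 17.6 FPKM (SD, n = 3 libraries each). All of them were called, with adjusted p-values between 1.595e-11 and 1.422e-09 (limma with Benjamini-Hochberg adjustment).

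In all, 11 genes were under 20 FPKM in normal and at 500 FPKM or more in HS (2.20%). This was so for 13 of the 6945 genes listed for both (0.187%). With Nip values it was so for 0 of the 397 identifiers unlisted for 93-11 at 20 FPKM or more. Of all 26883 LOC_Os identifiers listed for Nip, with no minimum applied, it was so for 2. FPKM sums in HS were lower in Nip than in 93-11, and no count was made on rescaled values. The limits of the group of 11 were chosen after the data were seen, and its genes met the minimum of 20 FPKM through HS alone. Besides 7 genes described above they comprised LOC_Os03g35861, which rose from 17.2 ± 1.87 to 2029 ± 150 FPKM (SD, n = 3 libraries each), LOC_Os03g02874, LOC_Os04g27809 and LOC_Os03g64264. The means of the last 3, which were singled out after their values were seen, went from 5.05 to 1286 FPKM, from 18.8 to 1315 FPKM and from 5.94 to 853 FPKM. The identifier did not end in 0 in 10 of the 11 genes, LOC_Os01g27970 being the exception.

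Most of the identifiers next to these 11 genes were low. Of the 18 adjacent identifiers that are listed for 93-11, only LOC_Os09g03200, beside LOC_Os09g03204, was over 200 FPKM in HS, with a mean of 2768 FPKM after 2.24 FPKM in normal. In Nip, where 15 of the adjacent identifiers are listed, it was again the only such identifier, with 259 FPKM in HS after 5.16 FPKM in normal. LOC_Os05g06404 lay between LOC_Os05g06399 and LOC_Os05g06410, which are unlisted for 93-11 and had means of 65.7 and 10.8 FPKM in Nip HS.

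Low levels were more often on the normal side. A gene under 1 FPKM in every library of a group met the minimum of 20 FPKM through the other group. In the 499 genes a single group that met it was more often HS. Every normal library was under 1 FPKM in 20 of the 499 genes (4.01%), against 0.864% of genes listed for both at the same level, and every HS library was under 1 FPKM in 3 genes (0.601%), against 1.14%. Among the former, LOC_Os12g19443 was at 0.566, 0.584 and 0.405 FPKM in normal and at 74.3, 77.2 and 80.0 FPKM in HS.

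Steep falls were about as frequent as in other genes of this level. A called log2 fold change of -3 or less was found in 53 of the 499 genes (10.6%), against 5.02% of all genes tested and 10.1% of those listed for both at the same level. LOC_Os08g07080 had the largest fall, from 269, 270 and 262 FPKM to 2.30, 2.03 and 2.13 FPKM, and its log2 fold change was -6.41 with a standard error of 0.051 (limma, adjusted p = 1.595e-11). Its HS mean was 124-fold below its normal mean.

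LOC_Os11g47970 had the highest mean of the 499 genes. It was at 5458, 5662 and 5900 FPKM in the normal libraries of 93-11 and at 94.2, 94.3 and 90.6 FPKM in the HS libraries (log2 fold change -5.92, standard error 0.043). LOC_Os04g55159 fell from 869, 812 and 940 FPKM to 14.2, 19.3 and 15.6 FPKM (log2 fold change -5.66). No HS library of either gene came near a normal library.

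LOC_Os10g05980 and LOC_Os10g05990 stand side by side and both fell, from 265 ± 10.5 to 3.81 ± 1.56 FPKM and from 224 ± 5.87 to 3.91 ± 0.457 FPKM (SD, n = 3 libraries each). LOC_Os12g07214 fell from 127 ± 2.53 to 1.96 ± 0.555 FPKM and LOC_Os01g61849 from 217 ± 4.51 to 5.14 ± 1.29 FPKM. LOC_Os02g29867 was at 58.0, 60.5 and 63.5 FPKM in normal and at 0.808, 0.407 and 0.576 FPKM in HS. The HS libraries of these 5 genes were all under 10 FPKM.

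**Figure D4:**
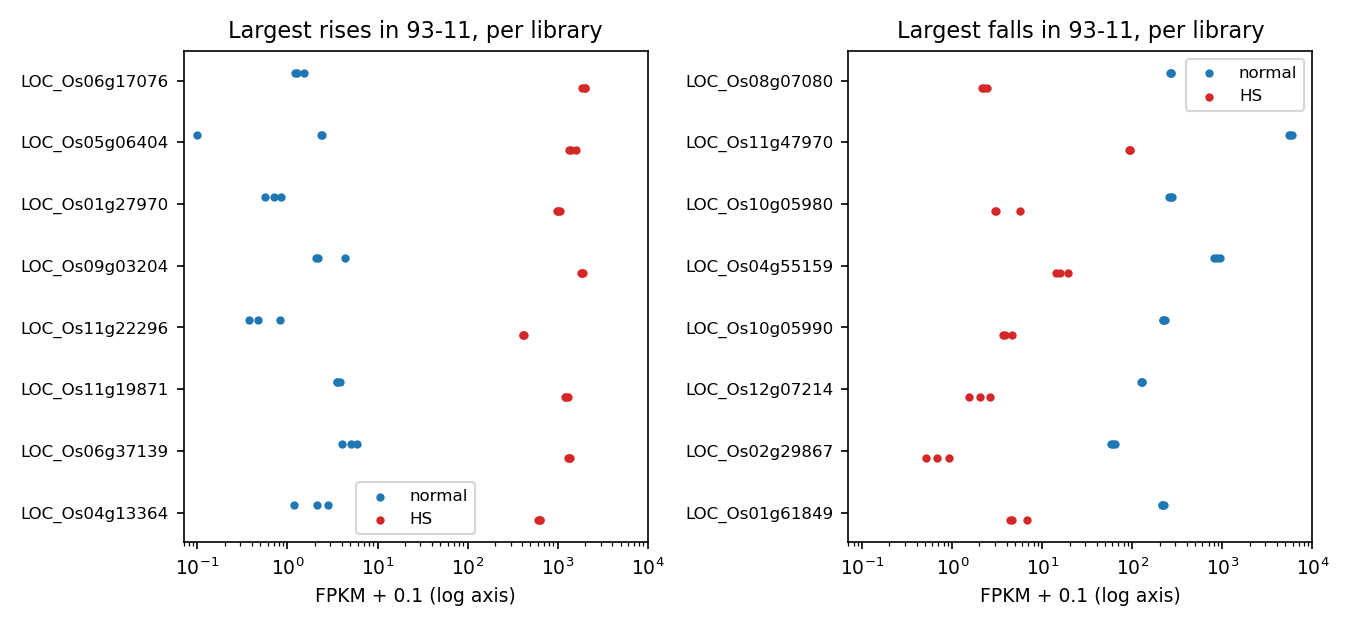
FPKM + 0.1 (log axis) in each of the 3 normal (blue) and 3 HS (red) libraries of 93-11 for the 8 called genes with the largest rise (left) and the 8 with the largest fall (right). In no gene do the groups overlap, for example 1.12 to 1.42 FPKM against 1859 to 2031 FPKM in LOC_Os06g17076.

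Other genes of high mean changed from a level that was already measurable in normal growth. LOC_Os04g50980 was at 798, 799 and 881 FPKM in normal and rose to 4981, 4846 and 4650 FPKM in HS (log2 fold change 2.55, standard error 0.054). LOC_Os09g01000 rose from 565, 533 and 643 FPKM to 3131, 2473 and 2685 FPKM (log2 fold change 2.25). LOC_Os01g04619 rose from 34.8, 34.5 and 37.1 FPKM to 2075, 2173 and 2036 FPKM (log2 fold change 5.84). The groups did not overlap in any of them.

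LOC_Os10g21384 rose from 171, 161 and 188 FPKM to 1675, 1125 and 1164 FPKM, so that 1 of its HS libraries stood above the others. LOC_Os05g48634 fell from 2013, 2022 and 2174 FPKM to 64.0, 73.9 and 61.9 FPKM, a log2 fold change of -4.94. LOC_Os12g19456 fell from 2370, 2447 and 2565 FPKM to 106, 106 and 114 FPKM, a log2 fold change of -4.49. Of the 10 genes of highest mean, 7 rose and 3 fell.

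The genes of highest mean that were not called were LOC_Os02g39795, LOC_Os04g37778, LOC_Os03g58464 and LOC_Os01g68950. LOC_Os02g39795 was at 377, 385 and 391 FPKM in normal and at 604, 620 and 605 FPKM in HS. Its log2 fold change of 0.67 (standard error 0.036) missed the size of 1 and not the adjusted p (2.378e-07, limma). The log2 fold changes of LOC_Os04g37778 (0.56), LOC_Os03g58464 (0.65) and LOC_Os01g68950 (0.79) were also under 1, and in each the HS libraries were all above the normal libraries. A gene that was not called was thus not always steady.

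The longest run of neighbours moved in 1 direction. LOC_Os08g39660 rose from 2.59, 3.10 and 2.47 FPKM to 122, 121 and 110 FPKM, LOC_Os08g39680 from 5.37 ± 0.957 to 48.1 ± 1.44 FPKM and LOC_Os08g39686 from 9.73 ± 0.608 to 26.4 ± 1.04 FPKM (SD, n = 3 libraries each). Their log2 fold changes were 5.0, 2.96 and 1.35, and the last was 0.96 with libraries rescaled to sum to 1000000, short of a call. LOC_Os09g00999 rose from 3.97 ± 1.09 to 101 ± 1.09 FPKM beside LOC_Os09g01000.

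Neighbours did not always move alike. In 8 of the 17 runs all genes had the same call, and in 6 they were called in opposite directions. Of the neighbours LOC_Os12g19443 and LOC_Os12g19456, the former rose with a log2 fold change of 5.69 and the latter fell with one of -4.49.

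Many of the genes had a neighbour that was expressed in Nip and was either lower in 93-11 or unlisted for it. The 290 genes at 20 FPKM or more in 93-11 normal were taken. For each, the identifiers just before and just after, among those listed for either cultivar, were read in the normal libraries of Nip. In 116 (40.0%) such an identifier was at 20 FPKM or more in Nip and at least 4-fold lower in 93-11, on FPKM + 1, or unlisted for it. This held for 182 of the 4872 genes listed for both at the same level (3.74%). The adjacent identifier was unlisted for 93-11 in 56 of the 116 pairs and has no level there to compare. Identifiers higher in 93-11 than in Nip were not counted, and FPKM was taken as deposited. This comparison was chosen after the data were seen and was not tested.

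The share was higher among abundant genes. Of the 70 genes at 100 FPKM or more in normal, 40 (57.1%) had such an adjacent identifier, against 5.50% of the 891 genes listed for both. Read in the HS libraries, it was found for 26 of the 209 genes that reached 20 FPKM in HS only (12.4%), against 5.02% of 2073, and of the 11 genes that rose to 500 FPKM or more only LOC_Os05g06404 had one. Over all 499 genes, those ending in 0 had such a neighbour in 39.2% of cases and the others in 21.6%. Genes that reached 20 FPKM in HS only, which had one less often, were 33.5% of the former and 47.2% of the latter.

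LOC_Os11g47970, at 5673 ± 221 FPKM in 93-11 normal (SD, n = 3), lies beside LOC_Os11g47980. That identifier was at 6347, 6618 and 6291 FPKM in the normal libraries of Nip and at a mean of 1.52 FPKM in those of 93-11. That the level stood under a different identifier in each cultivar follows from the choice of pairs. How alike the 2 levels are was not part of that choice, beyond the minimum of 20 FPKM. Upon HS, LOC_Os11g47980 fell in Nip to 966, 970 and 994 FPKM, a log2 fold change of -2.71, beside -5.92 for LOC_Os11g47970 in 93-11. With libraries rescaled to sum to 1000000 these changes were -2.21 and -6.35.

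LOC_Os05g48634, at 2070 ± 90.4 FPKM in 93-11 normal, lies beside LOC_Os05g48630, which is unlisted for 93-11 and was at 3299, 3214 and 3285 FPKM in Nip normal. LOC_Os03g03910, at 1043 ± 30.8 FPKM, lies beside LOC_Os03g03920, at 1031, 1052 and 1073 FPKM in Nip and 13.9 FPKM in 93-11. LOC_Os01g17170, at 890 ± 35.7 FPKM, lies beside LOC_Os01g17180, at 1215, 1186 and 1236 FPKM in Nip and 8.60 FPKM in 93-11 (SD, n = 3 libraries each). In these pairs, too, the different identifiers follow from the choice of pairs.

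LOC_Os06g15400 (626 ± 33.5 FPKM) had the neighbour LOC_Os06g15410, at 896 ± 47.4 FPKM in Nip and 2.94 FPKM in 93-11. LOC_Os07g32880 (511 ± 33.8 FPKM) had LOC_Os07g32890, at 622 ± 23.4 FPKM in Nip and 1.92 FPKM in 93-11 (SD, n = 3 libraries each). The levels were less alike for LOC_Os04g55159, with 874 ± 64.1 FPKM against 186 ± 12.9 FPKM for LOC_Os04g55150 in Nip. LOC_Os04g50980 exceeded its neighbour LOC_Os04g50970, which is unlisted for 93-11 and rose in Nip from 270, 279 and 274 FPKM to 1238, 1256 and 1331 FPKM (log2 fold change 2.21). With rescaled libraries its log2 fold change was 2.72, beside 2.12 for LOC_Os04g50980. The pairs given here are those of highest level in normal growth.

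**Figure D5:**
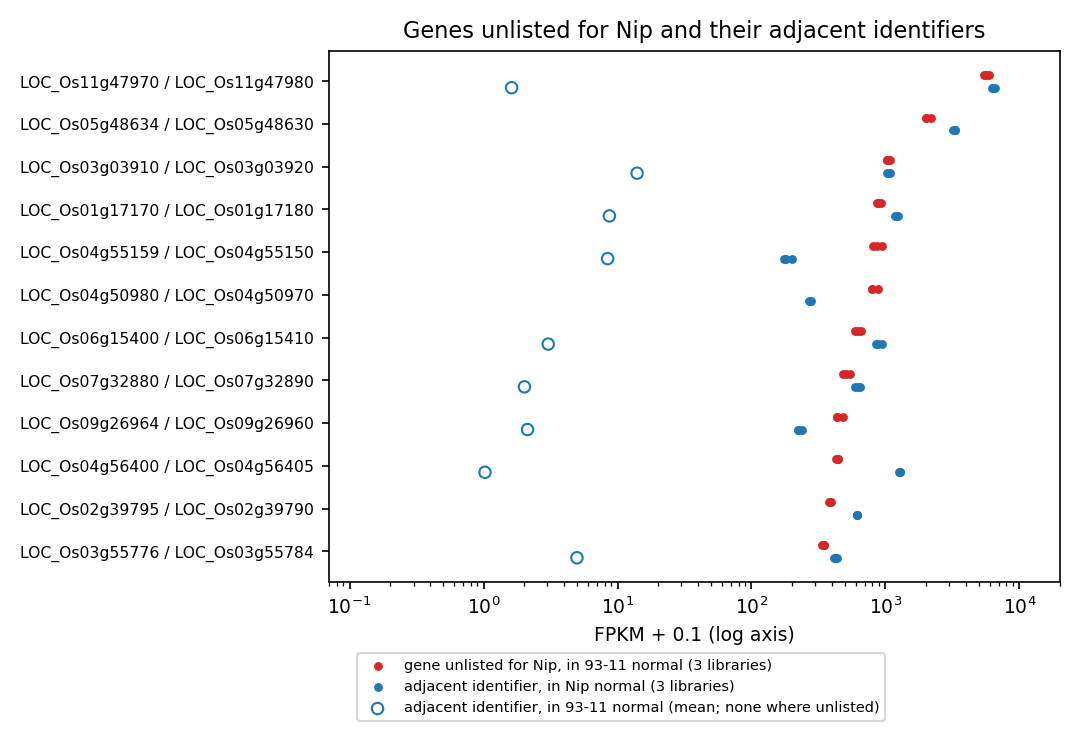
FPKM + 0.1 (log axis) in normal growth for the 12 most abundant pairs of a gene unlisted for Nip and its adjacent identifier. Red points are the gene in the 3 libraries of 93-11, filled blue points its adjacent identifier in the 3 libraries of Nip, and open circles that identifier's mean in 93-11, missing where it is unlisted. The means of the first pair are 5673 FPKM in 93-11 and 6418 FPKM in Nip, and the open circles lie far to the left, as the choice of pairs requires.

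Over the 116 pairs the ratio of the gene in 93-11 normal to its adjacent identifier in Nip normal had a median of 0.722 (quartiles 0.568 and 1.03, range 0.0662 to 4.77), and 83 ratios (71.6%) were between 0.5 and 2. For 4307 identifiers at 20 FPKM or more in normal in both cultivars, the ratio of 93-11 to Nip under the same identifier had a median of 0.805, and 86.3% were between 0.5 and 2. With libraries rescaled to sum to 1000000 the medians were 0.956 and 1.07, and 73.3% and 87.7% of the ratios were between 0.5 and 2. FPKM divides by the annotated length of each gene, and the lengths used are not in the files.

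The responses of the pairs to HS are given as a description. Pearson's r between the log2 fold change of the gene in 93-11 and that of its adjacent identifier in Nip was 0.629 over the 116 pairs, and it was 0.621 for the 4307 identifiers compared under their own name. The points share libraries, and genes are not replicates. Of the 56 genes of these pairs that were downregulated in 93-11, the adjacent identifier was downregulated in Nip in 37 (66.1%), not called in 18 and upregulated in 1. Of the 13 upregulated genes, the adjacent identifier was upregulated in 1, downregulated in 2 and not called in 10. Of the 47 genes not called, it was upregulated in 2, downregulated in 6 and not called in 39. Under their own name, 946 of 1597 identifiers downregulated in 93-11 were downregulated in Nip (59.2%). With rescaled libraries these shares were 46.0% (29 of 63) and 35.9% (707 of 1972). As deposited, identifiers upregulated in 93-11 were, under their own name, upregulated in Nip in 111 cases, downregulated in 66 and not called in 575. Those not called in 93-11 were upregulated in Nip in 40 cases, downregulated in 321 and not called in 1597. Of the pairs, 31.9% were downregulated on both sides and 33.6% called on neither, against 22.0% and 37.1% of the 4307 identifiers. The share downregulated on both sides depended on the scaling. The libraries were made with a stranded kit, per the paper, but whether counting used the strand is not given in the sources used here. Reads of overlapping genes may therefore be shared, and their part in these pairs was not tested.

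The nearest identifiers on either side that are listed for both cultivars, 936 in all, were counted by their calls in each cultivar. In 93-11, 177 of 739 tested were upregulated (24.0%) and 217 downregulated (29.4%), near the 22.7% and 27.5% of all genes tested. In Nip, 65 of 747 were upregulated (8.70%) and 173 downregulated (23.2%), where 9.69% and 17.8% of the 20724 genes tested were called. With libraries rescaled to sum to 1000000 the balance in Nip turned, to 160 upregulated (21.4%) and 107 downregulated (14.3%) neighbours, and it turned likewise over all Nip genes tested, to 23.5% and 11.9%. No test of these shares was made. Of the 431 at 20 FPKM or more in either cultivar, 119 (27.6%) were at least 4-fold lower in 93-11 than in Nip in normal or HS, against 11.0% of the 8398 such identifiers listed for both. The adjacent identifiers of the pairs above that are listed for 93-11 are among these 119, since the limits are the same. This share is therefore not a separate observation, and it was read on FPKM as deposited.

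A few values could not be read as the level of a group. LOC_Os11g45118 was at 0, 0 and 81.0 FPKM in the normal libraries and at 69.8, 68.0 and 0 FPKM in the HS libraries. It was the only gene at 0 in 1 library and at 20 FPKM or more in another of the same group, and was singled out after its values were seen. It was not called (adjusted p = 0.392, limma). In all, 8 of the 499 genes were listed at 0 in at least 1 library. The coefficient of variation in HS was over 50% in 4 of the 398 genes at 20 FPKM or more there, against 10 of 5285 listed for both. In normal this was so for 1 of 290, against 7 of 4872. LOC_Os03g59504, singled out after its values were seen, was at 0 in normal and at 11.1, 40.5 and 15.5 FPKM in HS. It was called as upregulated, although its mean reached 20 FPKM through 1 library.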

How the data were processed

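RNA-seq libraries of 2 rice cultivars, 3 for each of 4 groups, were used. Per the paper, the authors aligned the reads to the genome of each cultivar with STAR. They deposited FPKM values, 1 per gene and library. The submitters' processing notes name HISAT2 2.0.4, StringTie 1.3.4d and DESeq2, and which of these tools made the deposited FPKM, the genome builds and the annotation releases are not given in the sources used here. Identifiers were matched between cultivars by name, without regard to case. limma 3.58.1 (R 4.3.3) with a trended prior was fitted to log2(FPKM + 1) of the 6 libraries of each cultivar, keeping genes that reached 1 FPKM in 3 or more libraries, with Benjamini-Hochberg adjustment over all of them. A gene was called when its adjusted p was below 0.01 and its log2 fold change was 1 or more in either direction. The fit was tested on simulated data. Fold changes on this scale understate those of low genes.

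The genes, lists and comparisons were chosen with earlier results of these data known. Genes given by identifier were the 10 of highest mean, the 8 largest called rises and the 8 largest called falls without overlap, the 4 of highest mean not called, the run of 3 neighbours, the 2 runs of 2 with the highest summed level among 16, and those next to the minimum of 20 FPKM. The adjacent identifiers, their pairs, the rescaling of the pairs and genes marked so in the text were chosen after their values were seen. Alternatives were a pseudocount of 0.1, no filter, quantile normalization, rescaling to a sum of 1000000, median-ratio scaling, a replicate block, each library left out, limma's treat test with a minimum change of 1, an adjusted p limit of 0.05, and other limits of the rule. Summaries were made with Python 3.11.15. No sequences are shown, since no table used here matched the identifiers.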

Additional observations from a re-analysis of the deposited data

How the results depend on the processing

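Of 552 values under alternatives, 543 kept their direction and call or, for a number of genes, stayed within 1.5 times, and 0 reversed. Of the 552 values, 476 were log2 fold changes of 34 named genes. Many of these genes were named for a large change, which leaves little room for a call to be lost. The rule mattered: 812 genes met a minimum of 10 FPKM and 227 a minimum of 50 FPKM, where 499 met 20. With 1 library of 93-11 left out, 496 to 503 genes met it. Rescaling to a sum of 1000000 made the log2 fold change of LOC_Os08g39686 0.96, short of a call, and gave 160 upregulated and 107 downregulated neighbouring identifiers in Nip, against 65 and 173, while all Nip genes tested went from 2008 and 3685 to 4871 and 2470. LOC_Os07g49204, next to the minimum, was not called at a log2 fold change of 0.94 but was with a pseudocount of 0.1 (1.0). With 1 library left out it ranged from 0.71 to 1.12, and it was called without normal replicate 1 (1.04), normal replicate 3 (1.06) or HS replicate 2 (1.12).

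Of the 337 calls among the 499 genes, 291 were kept by limma's treat test with a minimum change of 1 and 292 with rescaled libraries, and 0 turned direction in the alternatives run. Leaving out 1 library gave 214 to 219 upregulated and 115 to 122 downregulated genes, and quantile normalization gave 199 and 134. An adjacent identifier lower in 93-11 or unlisted for it (64 of the 142 at 4-fold) was found for 142 genes at 4-fold, 178 at 2-fold and 123 at 8-fold, against 286, 638 and 209 of the 6945 genes listed for both, limits chosen after the data were seen. Deviations of same-numbered normal and HS libraries had correlations across genes of -0.016, 0.053 and -0.060 in 93-11. Differently numbered libraries were at -0.070 to 0.081 there. In Nip the same-numbered libraries were at 0.034, 0.038 and 0.042 and the others at -0.043 to 0.005. Whether same-numbered libraries share more than a number cannot be told from such small values. The replicate block gave 216 upregulated and 122 downregulated genes among the 499, and 4633 and 5593 over all genes tested. Among the neighbouring identifiers in Nip it gave 65 and 174.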
